A study of Ceratina calcarata with 12 samples.

Results

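The genes described here are 8 gene models of the small carpenter bee Ceratina calcarata, which the study's annotation places under the molecular function term neurotransmitter:sodium symporter activity, out of 20693 gene models in the count files. They were taken from the study's list of genes that differed in expression between its RNA groups, so the same contrast chose them. Their differences are given as a description, and the calls and adjusted p given for them show only where they lie relative to the threshold. RNA was measured in heads of newly eclosed adult females from 2 groups of lab-reared nests. In the no care group (3 libraries) the mother was removed after she had provisioned the brood, and the offspring developed as orphans. In the care group (3 libraries) the mother stayed with the nest until the offspring were adult. Both groups kept their pollen and eggs, the bees came from different nests, and each library was a pool of 3 heads. The spread between libraries is therefore a spread between pools, and a head holds brain, eyes, glands, fat body and muscle together, so that fewer cells of a type and less RNA per cell cannot be told apart.

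Neurotransmitter:sodium symporters are membrane proteins that use the sodium gradient to carry transmitters and related amino acids into cells. At synapses they clear transmitters such as GABA, serotonin and dopamine from the cleft, and glial cells carry members of the family too. In insects some members instead take up amino acids as nutrients. The annotation used here gives the function of the 8 models and not the substrate of each, so none of them is assigned a transmitter below, and no position or sequence was matched to them.

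The counts per library summed to between 28882748 and 30811286 in no care and between 26752341 and 31894020 in care. Counts were scaled with the TMM method and are given as CPM, a gene's counts relative to the scaled total of its library. CPM are not divided by gene length, so values are compared between libraries and not between genes. All 9 marker genes of head cell types were detected, and no marker of glia was among them. The 3 photoreceptor markers, the opsins Rh3 and Rh6 and the arrestin Arr1 (named after their Drosophila matches), summed to between 1526 and 2006 CPM in no care, against 3369 to 4405 CPM in care, and Rh6 and Arr1 passed edgeR's quasi-likelihood test as lower in no care (adjusted p = 0.0028 and 0.00041). The mean of Rh6 was 750 CPM in no care and 2508 CPM in care, and that of Arr1 was 61.4 and 178 CPM. The mean of Rh3 was 1003 CPM in no care and 1360 CPM in care. Rh3 did not pass the quasi-likelihood test (adjusted p = 0.020). With no care replicate 2, care replicate 1 or care replicate 3 left out, Rh6 did not pass. The neuron markers Shab, sei and cpx summed to between 4413 and 5147 CPM in no care, against 3233 to 3450 CPM in care. That separation came from cpx, which is itself on a list the study chose by this contrast, and Shab and sei alone overlapped, at 570.1 to 707 CPM in no care and 557 to 586 CPM in care. The muscle markers Mlc2 and Zasp66 overlapped between the groups, at 4956 to 6999 CPM in no care and 6382 to 7484 CPM in care, and so did the fat body marker Tsf1, at 91.2 to 130 CPM in no care and 126 to 172 CPM in care. The part of these cell types in the symporter values was not tested.

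Of the 8 symporter genes, 6 were higher and 2 were lower in no care. The no care and care libraries did not overlap for any of the 8, where 37.6% of all 10763 genes tested did not overlap. All 3 no care libraries lay above all 3 care libraries in 18.4% of the genes tested, and below them in 19.2%. At a Benjamini-Hochberg adjusted p of 0.01, the quasi-likelihood test of edgeR called 6 of the 8, beside 7.01% of all genes tested. Of these, 4 were called higher in no care, beside 3.72% of all genes tested, and 2 were called lower, beside 3.3%. The exact test of edgeR, which the study used, called 7 of the 8, beside 13.2% of all genes tested. Because the same contrast chose the genes, nothing is read from these counts. The median log2 fold change (no care over care) was 0.74 over the 8 genes and 0.00 over all genes tested, and the median size of the change without regard to sign was 0.79 over the 8, 0.95 over the 755 genes called and 0.24 over all genes tested. With no care replicate 1 or no care replicate 2 left out, 4 of the 8 were called, beside 350 and 327 of all 10763 genes tested. With care replicate 1 or care replicate 3 left out, 3 of the 8 were called, beside 275 and 172 of all genes tested. On all 6 libraries 755 of the genes tested were called. Neither of the 2 lower in no care, Ccalc.v2_005614 and Ccalc.v2_010973, was called without no care replicate 1, care replicate 1 or care replicate 3, nor with the replicate number as a block, and Ccalc.v2_005614 was not called without no care replicate 2 or care replicate 2 either. The split of 6 higher and 2 lower by sign stayed in every fit. Since the groups did not overlap for any of the 8, leaving out a library could hardly change a sign, and nothing is read from this.

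**Figure D1:**
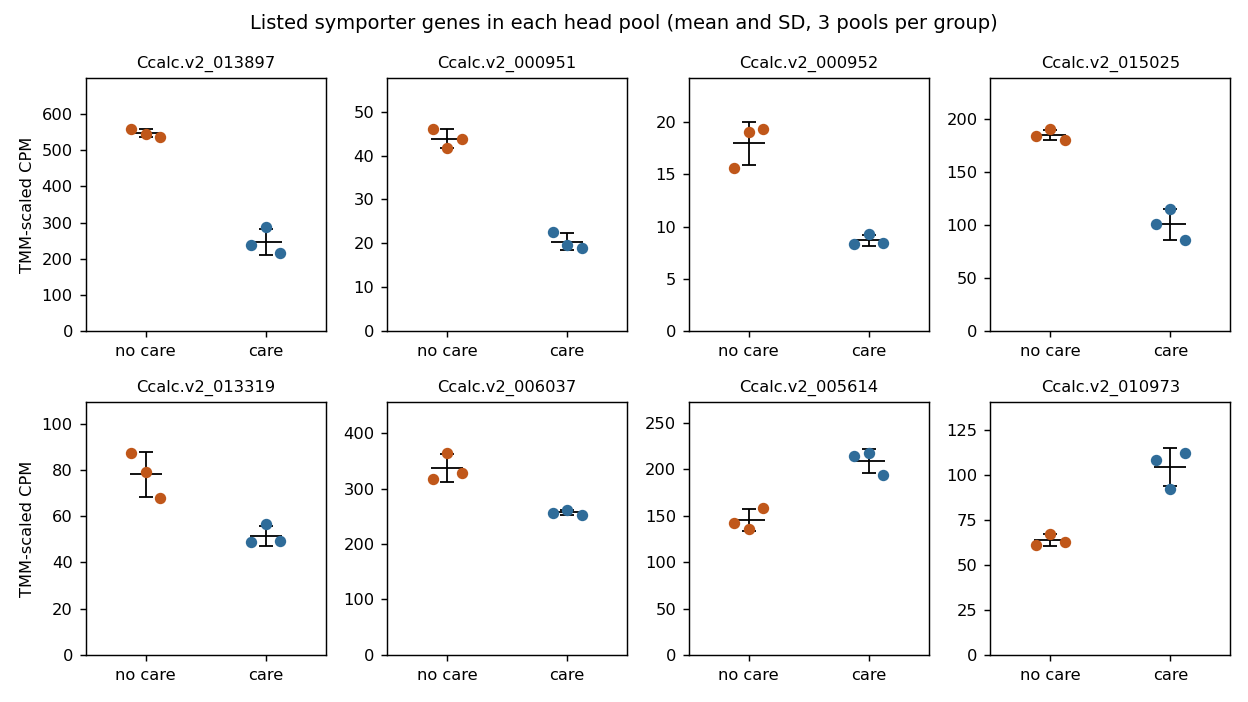
TMM-scaled CPM of the 8 listed symporter genes in each head pool, with 1 panel per gene and its own axis from 0. Points are libraries, horizontal marks are means and bars are SDs over 3 pools, with no care in orange on the left and care in blue on the right. The groups are apart in all 8 panels, with no care on top in 6 and below in Ccalc.v2_005614 and Ccalc.v2_010973.

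The gene with the largest change was Ccalc.v2_013897. It had 559, 545 and 536 CPM in no care replicates 1, 2 and 3, against 237, 287 and 215 CPM in care replicates 1, 2 and 3. The lowest no care pool was 1.87 times the highest care pool. The means were 547 ± 11.2 CPM in no care and 246 ± 36.6 CPM in care (SD, n = 3 each), a fold of 2.22 and a log2 fold change of 1.15 (SE 0.12). The no care pools lay close together and the care pools were spread, with care replicate 2 the nearest to no care. Without care replicate 2 the log2 fold change was 1.27.

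Ccalc.v2_015025 had the same shape. It had 184, 191 and 181 CPM in no care replicates 1, 2 and 3, against 102, 115 and 86.2 CPM in care replicates 1, 2 and 3. Care replicate 2 was again the highest care pool and care replicate 3 the lowest. The fold was 1.84 (log2 fold change 0.88, SE 0.11), and it was 0.98 on the log2 scale without care replicate 2. Over the 6 libraries the log2 values of Ccalc.v2_015025 and Ccalc.v2_013897 had a Pearson correlation of 0.995, the highest between any pair of the 8 genes. Among all 9187 genes compared, 2 were closer to Ccalc.v2_015025 and 13 closer to Ccalc.v2_013897 than that.

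Ccalc.v2_000951 and Ccalc.v2_000952 carry consecutive identifiers and stand in consecutive lines of the count files. Ccalc.v2_000951 had 46.1, 41.7 and 43.7 CPM in no care replicates 1, 2 and 3, against 22.6, 19.7 and 18.9 CPM in care replicates 1, 2 and 3. Every no care pool was at least 1.84 times every care pool, and the fold of the fit was 2.15 (log2 fold change 1.10, SE 0.10). Ccalc.v2_000952, the gene with the fewest counts of the 8, had 15.6, 19.0 and 19.3 CPM in no care replicates 1, 2 and 3, against 8.34, 9.28 and 8.45 CPM in care replicates 1, 2 and 3. Here no care replicate 1 was the lowest of its group, where it was the highest for Ccalc.v2_000951. The fold of Ccalc.v2_000952 was 2.07 (log2 fold change 1.05, SE 0.13).

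The ratio of counts of Ccalc.v2_000951 to counts of Ccalc.v2_000952 was 2.95, 2.19 and 2.26 in no care replicates 1, 2 and 3 and 2.71, 2.12 and 2.24 in care replicates 1, 2 and 3. The ratio overlapped between the groups, with a mean of 2.47 ± 0.42 in no care and 2.35 ± 0.31 in care (SD, n = 3 each). Whether they are separate genes or parts of 1 gene cannot be told from the counts. The gene models around the pair, chosen after its values were seen, were then looked at. The 3 models listed just before it, Ccalc.v2_000948, Ccalc.v2_000949 and Ccalc.v2_000950, had log2 fold changes of -0.32, -0.27 and -0.08, and none of them passed edgeR's quasi-likelihood test (adjusted p = 0.25, 0.12 and 0.57). The 3 models listed just after it, Ccalc.v2_000953, Ccalc.v2_000954 and Ccalc.v2_000955, had 0 counts in all 6 libraries.

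**Figure D2:**
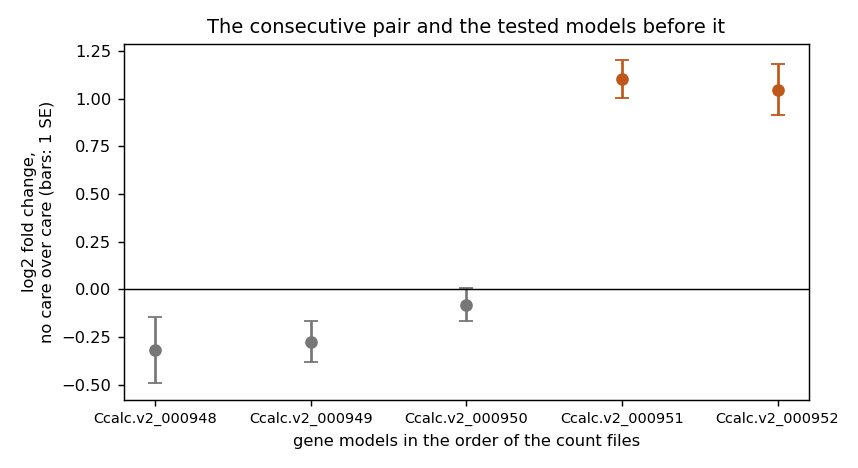
Log2 fold change (no care over care, bars 1 SE) of Ccalc.v2_000951 and Ccalc.v2_000952 in orange and of the 3 gene models listed before them in grey, in the order of the count files. The pair sits at 1.10 and 1.05, and the 3 models before it lie between -0.32 and -0.08.

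Ccalc.v2_013319 and Ccalc.v2_006037 had smaller differences in the same direction. Ccalc.v2_013319 had 87.5, 79.0 and 67.9 CPM in no care replicates 1, 2 and 3, against 49.1, 56.6 and 49.1 CPM in care replicates 1, 2 and 3. The gap between the nearest pools was a factor of 1.20, and the fold of the fit was 1.52 (log2 fold change 0.60, SE 0.11). No care replicate 3 was the closest to the care pools, and without it the log2 fold change was 0.69.

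Ccalc.v2_006037 had 316, 365 and 329 CPM in no care replicates 1, 2 and 3, against 256, 262 and 253 CPM in care replicates 1, 2 and 3. Its fold of 1.31 (log2 fold change 0.39, SE 0.08) was the smallest of the 8. The care pools differed by little, with an SD of 4.46 CPM, and the no care pools by more, with an SD of 25.1 CPM (n = 3 each). Ccalc.v2_013319 and Ccalc.v2_006037 were the members that the quasi-likelihood test did not call. The exact test of edgeR was also run with genes kept when they passed the count minimum in at least 3 libraries. This setting was chosen after the values were seen, and it called 13.1% of 11068 genes. The study used the exact test and reported 1450 of 11068 genes, the same numbers, though its methods name more than 3 libraries. In this setting Ccalc.v2_006037 lay just inside the threshold, with a Benjamini-Hochberg adjusted p of 0.0099 in the exact test. With genes kept only when they passed in more than 3 libraries, the exact test put Ccalc.v2_006037 just outside, at an adjusted p of 0.0103. The next member inside the threshold was Ccalc.v2_013319.

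Ccalc.v2_010973 and Ccalc.v2_005614 were lower in no care. Ccalc.v2_010973 had 61.3, 67.6 and 63.0 CPM in no care replicates 1, 2 and 3, against 109, 92.6 and 113 CPM in care replicates 1, 2 and 3. The means were 64.0 ± 3.24 CPM in no care and 105 ± 10.6 CPM in care (SD, n = 3 each), a log2 fold change of -0.71 (SE 0.10). Care replicate 2, the highest care pool for 6 of the 8 genes, was the lowest care pool for this one. Without care replicate 2 the log2 fold change of Ccalc.v2_010973 was -0.79.

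Ccalc.v2_005614 had 141.8, 135.8 and 158.4 CPM in no care replicates 1, 2 and 3, against 214.4, 217.9 and 194.0 CPM in care replicates 1, 2 and 3. The nearest pools were no care replicate 3 and care replicate 3, which were apart by a factor of 1.22. The log2 fold change was -0.52 (SE 0.09). Besides the symporter term, the annotation also lists this model under transferase activity that moves acyl groups. Whether either term holds for it was not checked against its sequence.

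The sum of the 8 genes was 1412, 1444 and 1399 CPM in no care replicates 1, 2 and 3, against 998, 1060 and 938 CPM in care replicates 1, 2 and 3, and the groups did not overlap. The 6 genes that were higher in no care summed to 1209 ± 31.9 CPM in no care and 685 ± 59.8 CPM in care (SD, n = 3 each). The 2 that were lower in no care summed to 209 ± 10.5 CPM in no care and 313 ± 8.64 CPM in care (SD, n = 3 each). These genes were chosen by this contrast and split by its sign, so nothing is read from the separation of the sums. Ccalc.v2_013897 alone had means of 547 CPM in no care and 246 CPM in care.

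The make-up of the symporter counts differed between the groups too, which follows from the changes above. The genes were chosen by this contrast, with 6 higher and 2 lower, so nothing further is read from their shares. A share of counts depends on gene length as well as on expression, so it is read between libraries only. Ccalc.v2_013897 took 39.6%, 37.8% and 38.4% of the summed counts of the 8 genes in no care replicates 1, 2 and 3, against 23.7%, 27.1% and 23.0% in care replicates 1, 2 and 3. Ccalc.v2_005614 took 10.0%, 9.40% and 11.3% in no care replicates 1, 2 and 3, against 21.5%, 20.6% and 20.7% in care replicates 1, 2 and 3. In no care Ccalc.v2_013897 had 3.78 ± 0.34 times the counts of Ccalc.v2_005614, against 1.18 ± 0.12 times in care (SD, n = 3 each). This ratio of a gene higher in no care to a gene lower in no care restates their fold changes. The share of Ccalc.v2_010973 was 4.51 ± 0.17% in no care and 10.5 ± 1.66% in care (SD, n = 3 each). The shares of Ccalc.v2_006037 (22.4% to 25.3% in no care and 24.7% to 27.0% in care) and of Ccalc.v2_013319 (4.86% to 6.20% in no care and 4.91% to 5.34% in care) overlapped between the groups.

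**Figure D3:**
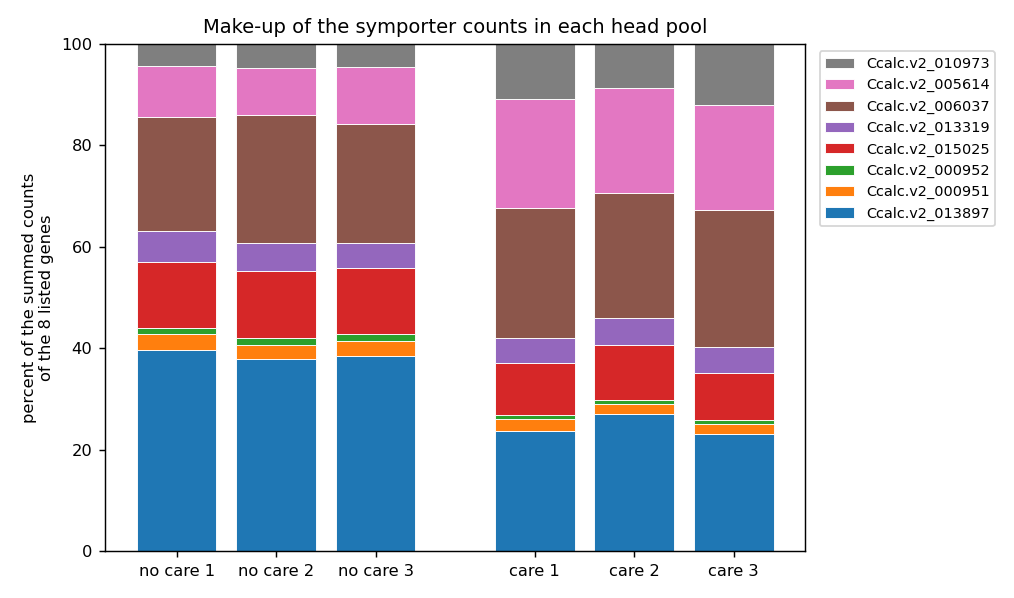
Share of each listed symporter gene in the summed counts of the 8 genes, in percent, for the 3 no care pools on the left and the 3 care pools on the right. Ccalc.v2_013897, at the foot of each bar, takes 37.8% to 39.6% in no care and 23.0% to 27.1% in care, while Ccalc.v2_005614 and Ccalc.v2_010973, at the top, take smaller shares in no care than in care.

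The spread within groups was uneven. On the log2(CPM + 1) scale the SD of Ccalc.v2_013897 was 0.03 in no care and 0.21 in care, where the median over the 462 tested genes within 0.5 log2 CPM of its level was 0.14 in no care and 0.08 in care. The SD of Ccalc.v2_015025 was 0.04 in no care and 0.21 in care, beside medians of 0.13 in no care and 0.07 in care. In all, 1 of the 8 genes (Ccalc.v2_013319) was above the median of genes of like level in no care, and 6 of the 8 were so in care. The test by which the study chose the 8 depends on this spread, so the counts are not read as a trait of symporters. Over the 755 genes called, the median of SD over mean CPM was 10.2% in no care and 10.8% in care. Over all genes tested it was 13.0% in no care and 8.8% in care, and over the 8 genes 6.3% in no care and 9.0% in care. Over all genes tested, the SD was larger in no care for 67.1% of them, and over the 8 genes it was larger in no care for 4 and in care for 4. The biological coefficient of variation that edgeR estimated was between 0.10 and 0.14 for the 8 genes, with a median of 0.11. The median was also 0.11 over the 5950 tested genes in the same range of levels, and 0.14 over all genes tested.

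For each gene the most similar other gene was sought by the Pearson correlation of log2(CPM + 1) over the 6 libraries, among 9187 tested genes with a mean of at least 1 CPM. These correlations carry no p, since all of them rest on the same 6 libraries and mostly on the step between the groups. The closest match of Ccalc.v2_006037 was Ccalc.v2_000532, matched to Drosophila complexin (cpx), with a correlation of 0.996. The closest of Ccalc.v2_015025 was Ccalc.v2_001478 (0.999), and that of Ccalc.v2_013897 was Ccalc.v2_003229 (0.997). Ccalc.v2_007643 was closest to Ccalc.v2_000951 and Ccalc.v2_014696 to Ccalc.v2_000952, at 0.998 and 0.997. Ccalc.v2_015559 was closest to Ccalc.v2_013319, Ccalc.v2_013876 to Ccalc.v2_010973 and Ccalc.v2_004460 to Ccalc.v2_005614, each at 0.998. The pair lower in no care, Ccalc.v2_010973 and Ccalc.v2_005614, had a correlation of 0.87 with each other, and 906 genes were closer to Ccalc.v2_010973 and 945 closer to Ccalc.v2_005614 than that.

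The study's term neurotransmitter transport holds these 8 genes and 1 more, Ccalc.v2_000532, the complexin match. Complexin is a small protein that in Drosophila binds the vesicle fusion machinery and holds back spontaneous release. Ccalc.v2_000532 had 3734, 4441 and 4061 CPM in no care replicates 1, 2 and 3, against 2736, 2864 and 2676 CPM in care replicates 1, 2 and 3. The groups did not overlap. Its log2 fold change was 0.56 (SE 0.12), and the quasi-likelihood test of edgeR gave a Benjamini-Hochberg adjusted p of 0.016, which did not pass 0.01, while the exact test gave 0.0011.

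Sodium:dicarboxylate symporters form another family of sodium-coupled carriers, which includes the glutamate transporters that glial cells use to clear that transmitter. The study's list of 4 such genes also holds only genes it called on these libraries. The fitted values of all 4 lay above 0, with log2 fold changes (no care over care) of 0.69 (Ccalc.v2_001284), 0.62 (Ccalc.v2_005456), 0.53 (Ccalc.v2_009785) and 0.50 (Ccalc.v2_019683), and the quasi-likelihood test called the first 3, beside 3.72% of all genes tested that were called higher. The median was 0.58, against 0.74 for the 8 neurotransmitter symporters. With care replicate 1, care replicate 3 or no care replicate 1 left out, 0 of the 4 were called, beside 275, 172 and 350 of all 10763 genes tested. Without no care replicate 2, 1 of the 4 was called, beside 327 of all genes tested. On all 6 libraries 755 of the genes tested were called. None of the 4 was lower in no care, where 2 of the 8 neurotransmitter symporters were, and this difference between the lists was not tested.

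Ligand-gated ion channels are receptors that open when a transmitter or another ligand binds. Of the 20 listed genes of this kind, also chosen by the study on these libraries, 17 were higher and 3 lower in no care, with a median log2 fold change of 0.74. The quasi-likelihood test called 12 of them, beside 7.01% of all genes tested, with 9 higher (beside 3.72%) and 3 lower (beside 3.3%), and nothing is read from this, since the same contrast chose the list. It called between 2 and 12 of the 20 with 1 library left out, beside 172 to 1109 of all 10763 genes tested. It called 2 without no care replicate 2 or care replicate 3, beside 327 and 172 of all genes tested. Without no care replicate 1 or care replicate 1 it called 4, beside 350 and 275 of all genes tested. The highest log2 fold changes were those of Ccalc.v2_007329 and Ccalc.v2_014639, at 2.05 and 1.47, and neither passed the quasi-likelihood test. The largest falls were those of Ccalc.v2_012034, with 0.45, 0.14 and 0.30 CPM in no care replicates 1, 2 and 3 against 12.6, 22.6 and 17.7 CPM in care replicates 1, 2 and 3, and of Ccalc.v2_003131, with a log2 fold change of -1.25.

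A list of 12 gene models matched to Drosophila genes of synaptic function was taken from the part of the study's annotation used here, whether or not they differed. Earlier results of these data were known when the list was made, and cpx is also on a list the study chose by this contrast. None of the 12 passed the quasi-likelihood test of edgeR at 0.01 after Benjamini-Hochberg adjustment, where it called 7.01% of all genes tested. In the same test 5 of the 12 had an unadjusted p under 0.05, beside 31.8% of all genes tested. The exact test called 2 (veli and cpx), beside 13.2%, and DESeq2 called 3 (veli, cpx and Vmat), beside 16.1% of the 10133 genes to which it gave an adjusted p. Beside these shares, the counts are not read as a result about the list. Without no care replicate 3 the quasi-likelihood test called CASK and Vmat, beside 1109 of all 10763 genes tested. The median log2 fold change was 0.10, against 0.00 over all genes tested. Vmat loads monoamines into synaptic vesicles in Drosophila, and monoamine symporters of the plasma membrane take them up again after release. It had 22.3, 22.7 and 19.5 CPM in no care replicates 1, 2 and 3, against 16.3, 15.6 and 15.5 CPM in care replicates 1, 2 and 3, a log2 fold change of 0.45 (SE 0.11) with an adjusted p of 0.026 in edgeR's quasi-likelihood test. The scaffold protein gene veli had a log2 fold change of 0.52 (SE 0.12) and an adjusted p of 0.021 in edgeR's quasi-likelihood test.

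In edgeR's quasi-likelihood test on all 6 libraries the other 9 of these 12 genes had no adjusted p under 0.05. The scaffold gene CASK (0.56 on the log2 scale) and prt, a vesicular transporter of the Drosophila mushroom body (0.62), had positive values with wide errors, with SEs of 0.17 and 0.30. The values of gb, which encodes a Drosophila amino acid transporter subunit that affects extracellular glutamate, of stg1, related to auxiliary subunits of glutamate receptors, and of the vesicle traffic gene Rab3-GEF lay between 0.08 and 0.11. Synd and PICK1, whose proteins act at membranes during endocytosis and receptor traffic, were at -0.10 and -0.11. The active zone gene Liprin-alpha was at -0.31, and the acetylcholine receptor subunit nAChRalpha4 was at -0.35, in a gene model that also matches another Drosophila gene.

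**Figure D4:**
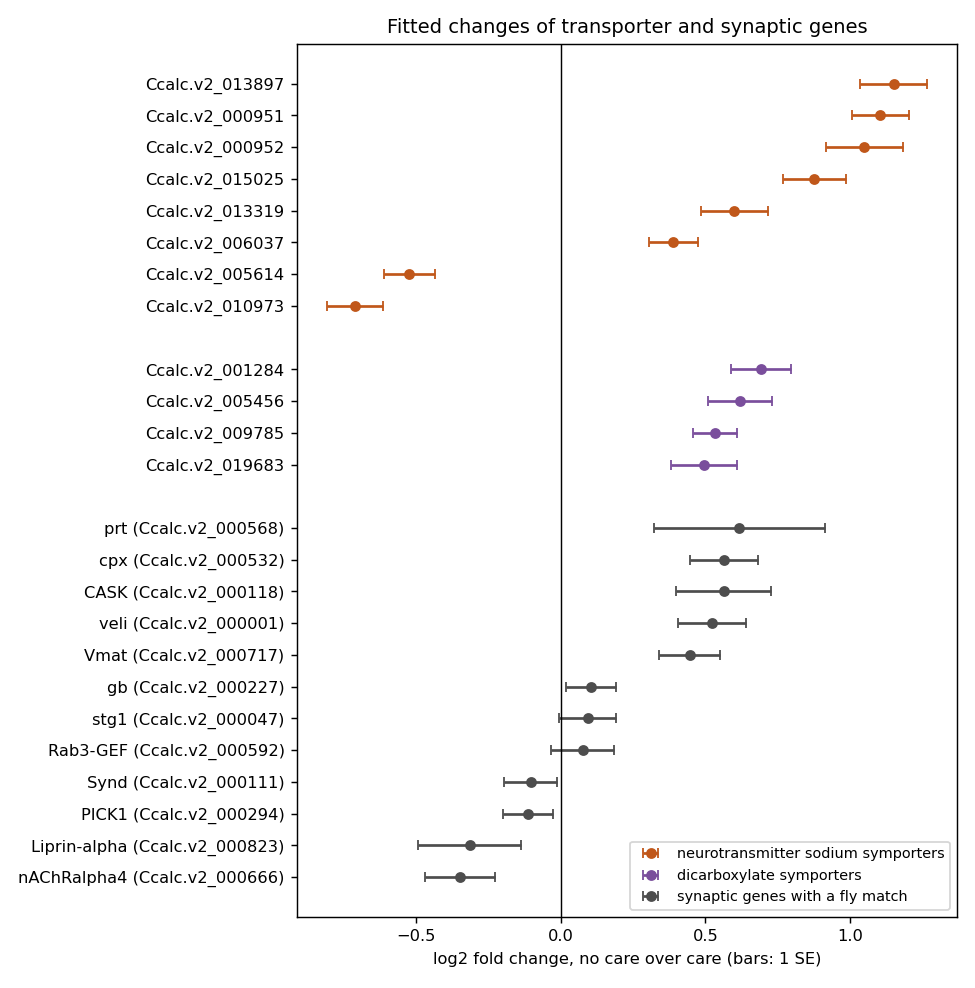
Log2 fold change (no care over care) with bars of 1 SE for the 8 neurotransmitter sodium symporters in orange, the 4 dicarboxylate symporters in purple and the 12 synaptic genes with a Drosophila match in grey. The neurotransmitter symporters run between -0.71 and 1.15, the dicarboxylate symporters between 0.50 and 0.69 and the synaptic genes between -0.35 and 0.62. The orange and purple genes were chosen by the study on these libraries and the grey ones were not, except that cpx is on such a list as well.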

How the data were processed

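RNA was sequenced from 3 no care and 3 care pools of heads. Per the labels and the study's methods, the authors used Trimmomatic 0.32 for trimming, TopHat for alignment to the species' own assembly and featureCounts to count reads per gene model. They deposited raw counts. Groups and replicates came from the sample labels. The members, gene lists, tests and alternatives were chosen with earlier results of these data known.

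A gene was tested when it exceeded 0.18 CPM in more than 3 libraries. The test was the quasi-likelihood test (edgeR 4.0.16, R 4.3.3, TMM factors, Benjamini-Hochberg adjustment, threshold 0.01). Standard errors were derived from the F statistic. CPM were divided by the effective library size. The exact test, DESeq2 1.42.0, other scalings, filters and thresholds, a replicate block and leaving out each library were tried as alternatives. Of these, the exact test is the one the study used. The code was tested on simulated data. Tables were made with Python 3.11.15, numpy 2.4.6, pandas 2.3.3 and matplotlib 3.10.9.

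Named were all 8 members, Ccalc.v2_000532, all genes of lists of up to 12, the 2 largest rises and 2 largest falls among the ligand-gated channels, and the closest gene to each member. The bisulfite data were not used here, since positions of the gene models were not used. No paired test was part of the main design. Pools of 3 heads and 3 libraries per group limit the precision.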

Additional observations from a re-analysis of the deposited data

How the results depend on the processing

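The log2 fold changes of the 8 symporter genes kept their sign in all 128 refits of single genes, and 6 were higher in no care in every fit. They moved by less than 1 SD between replicates, taken as the larger of the SDs of the groups. The refits used the same counts, and the groups did not overlap for any of the 8. The outcome could hardly have differed, and nothing is read from it. The number of the 8 called was 6 with the quasi-likelihood test, 7 with the exact test, 8 with DESeq2, 8 at a threshold of 0.05, and 3 to 7 with 1 library left out. Genes called numbered 755, against 1420 with the exact test, 1450 with the exact test and a filter in at least 3 libraries (chosen after the values were seen), 1630 with DESeq2, 1818 at 0.05 and 172 to 1109 with 1 library left out. Ligand-gated channel genes called numbered 12, against 20 with either exact test, 19 with DESeq2, 20 at 0.05 and 2 to 12 with 1 library left out. Dicarboxylate symporters called numbered 3, against 4 with either exact test, 4 with DESeq2, 4 at 0.05 and 0 to 2 with 1 library left out. Synaptic genes called numbered 0, against 2 with either exact test, 3 with DESeq2, 1 (cpx) without a filter on low counts, 3 at 0.05 and 0 to 2 with 1 library left out (CASK and Vmat without no care replicate 3). The cause of these differences was not tested.

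The groups share replicate numbers, but nothing says that a number pairs pools, and deviations of same-numbered pools correlated at -0.04, -0.07 and 0.11 over genes. With the replicate block 371 genes were called, 4 of the 8 symporters (all higher in no care), 0 dicarboxylate symporters, 9 ligand-gated channel genes and 0 synaptic genes.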
